A study of Mus musculus with 2 samples.

Results

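Insulin-like growth factors and their binding proteins were described in single αSMA-labeled periosteal cells. The 8 genes were taken by name: the ligands Igf1 and Igf2 and the binding protein genes Igfbp2, Igfbp3, Igfbp4, Igfbp5, Igfbp6 and Igfbp7. All 8 were among the 17938 genes listed. Mice carried aSMACreER and the Ai9 Tomato reporter, and received 2 doses of tamoxifen at 75 mg/kg, so that αSMA-expressing cells and their descendants turned red. Tomato+ cells were sorted, 1 per well, from tibia and femur periosteum of pools of 2 to 3 female mice. The 2-day and 6-week pools were aSMACreER/Ai9/Col2.3GFP mice aged 10.3 and 14.4 weeks, with chases of 2 and 43 days. The 13-week pool was aSMACreER/Ai9/R26-M2rtTA/TetOP-H2B-GFPH2B mice aged 20.1 weeks, with a chase of 96 days, that had been fed doxycycline for 5 weeks. In the 13-week pool, chase time, age, strain and doxycycline therefore cannot be told apart. Cells chased for 2 days and 13 weeks were on the same plate, separate from the 6-week cells. In the 6-week pool chase time, age and plate likewise cannot be told apart. By these ages and chases, the age at tamoxifen also differed between the pools.

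Igf1 and Igf2 are secreted ligands that signal through the receptor Igf1r. Igf2r binds Igf2 and carries it to lysosomes, and most circulating and matrix-held ligand is bound by Igfbp proteins, which store it, block it or present it to cells, and which proteases cleave. In bone and periosteum the pathway is known for supporting the growth and matrix synthesis of osteoblast-lineage cells, and Igfbp5 for binding to bone matrix. Igfbp6 prefers Igf2, and Igfbp7 binds the ligands only weakly.

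A well was kept when it held at least 200 genes, which left 503 of 600 wells with 445796 UMIs (unique molecular identifiers, each standing for 1 captured transcript). The 2-day, 6-week and 13-week pools kept 181, 189 and 133 wells. The median well held 727 UMIs. Wells with 1 or more UMIs of Rgs5, a pericyte gene, and too few tendon gene UMIs are called Rgs5 wells (32, 41 and 32 wells at 2 days, 6 weeks and 13 weeks). Wells with 3 or more UMIs of Thbs4, Fmod and Tnmd together, which are tendon and fibrous tissue genes, and none of Rgs5 are called tendon wells (67, 64 and 43 wells). The wells with neither numbered 79, 80 and 52. The remaining 13 wells passed both gates and entered no comparison. Of the tendon wells 13 had exactly 3 UMIs of the gate genes, and of the wells with neither 37 had exactly 2 and 98 of 211 had 1 or 2. No wells were removed as doublets. Barcodes could not serve as a check between plates, since 137 barcodes of kept wells occurred on both.

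The groups were checked against marker lists. With Rgs5 itself left out, 11 perivascular genes reached 45.9 UMIs per 10000 in Rgs5 wells, 8.08 in tendon wells and 16.6 in wells with neither. Without the gate genes, 7 tendon or fibrous genes reached 3.59, 47.7 and 4.11 per 10000 in the same order. Rgs5 wells also carried transcripts of the 11 endothelial genes, at 37.5 per 10000 against 0.870 and 3.85, and 43 of the 105 Rgs5 wells had 2 or more such UMIs. They are therefore named by their rule and not as pericytes. The 10 fibroblast genes reached 56.6, 185.3 and 260.2 per 10000 in Rgs5 wells, tendon wells and wells with neither. Wells with neither were mixed: 95 of 211 held at least 3 UMIs of Gsn, Ly6a and Pdgfra together (fibroblast wells), 43 held Pax7 or Cdh15 of muscle satellite cells, and 17 held 5 or more UMIs of the muscle fibre genes Acta1, Mb and Ckm. These sets overlap in a few wells.

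The promoters of 3 genes are shown for orientation: Igf1 and Igfbp6, which were lower in Rgs5 wells than in both other groups, and Igfbp7, the only one of the 8 called higher in Rgs5 wells, against wells with neither. Each is the 250 bases before the RefSeq start in GRCm38.p6, read on the gene's strand, with CCAAT or its reverse complement in capitals.
Igf1: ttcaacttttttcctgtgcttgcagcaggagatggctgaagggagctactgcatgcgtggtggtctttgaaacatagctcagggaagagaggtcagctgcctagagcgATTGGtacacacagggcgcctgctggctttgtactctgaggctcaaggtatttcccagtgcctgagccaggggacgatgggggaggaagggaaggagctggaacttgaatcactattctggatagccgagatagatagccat
Igfbp6: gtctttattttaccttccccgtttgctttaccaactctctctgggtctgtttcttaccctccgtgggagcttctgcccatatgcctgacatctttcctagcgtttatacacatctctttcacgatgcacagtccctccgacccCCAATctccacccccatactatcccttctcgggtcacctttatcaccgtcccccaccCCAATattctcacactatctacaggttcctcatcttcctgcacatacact
Igfbp7: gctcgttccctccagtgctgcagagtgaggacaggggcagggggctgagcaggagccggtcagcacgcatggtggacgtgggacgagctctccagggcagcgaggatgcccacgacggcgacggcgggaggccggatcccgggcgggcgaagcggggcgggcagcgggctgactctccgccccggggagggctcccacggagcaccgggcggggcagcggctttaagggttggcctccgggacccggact
They lie at chr10:87860861-87861110 (plus strand), chr15:102143936-102144185 (plus strand) and chr5:77408046-77408295 (minus strand). The Igf1 window held 1 match, on the opposite strand, 142 bases before the start, and the Igfbp6 window held 2, at 107 and 50 bases before the start. A match on either strand occurred in 33.9% of 32851 promoter windows of this length. TATAAA on the gene's strand (7.59% of windows) was in none of the 3. The Igfbp7 window also lacked an E-box, CANNTG on either strand (66.2% of windows), of which Igf1 and Igfbp6 had 1 each. GC content was 52.8% for Igf1, 49.6% for Igfbp6 and 74% for Igfbp7. In GENCODE M21, on GRCm38, the Igf1 gene begins at 87858265, the Igfbp6 gene at 102144362 and the Igfbp7 gene at 77408041, so the start differs between the annotations for each. Igfbp2 and Igfbp5 are neighbors on chromosome 1, at 72824503 to 72852474 (plus strand) and 72857932 to 72874884 (minus strand), yet Igfbp5 had 709 UMIs and Igfbp2 had 5.

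Binding protein transcripts outnumbered ligand transcripts. Levels of different genes are set side by side as counts of 3' ends, 1 UMI per captured transcript. Differences in capture between genes were not tested. Over all kept wells Igfbp5 was at 15.9 UMIs per 10000 (95% Poisson interval 14.8 to 17.1), Igfbp6 at 14.5 (13.4 to 15.7), Igfbp7 at 11.4 (10.4 to 12.4) and Igfbp4 at 5.07 (4.43 to 5.78). Igf1 followed at 3.25 (2.75 to 3.83), Igfbp3 at 1.48 (1.15 to 1.88), Igf2 at 0.695 (0.473 to 0.987) and Igfbp2 at 0.112 (0.0364 to 0.262). The intervals of Igfbp5 and Igfbp6 overlapped, and all other neighbors in this order had intervals that did not meet. Without the 3 richest wells of each pool Igfbp5, at 10.8, was below Igfbp6, at 12.3. The order differed between times: Igfbp5 was above Igfbp6 at 2 days (22.4 and 15.5) but below it at 6 weeks (12.9 and 14.5) and 13 weeks (10.4 and 13.1). At 13 weeks Igf1, at 1.36, was also below Igfbp3 (1.87) and Igf2 (1.53), with intervals that overlapped. Intervals cover counting error only, and with a median of 727 UMIs per well a gene without a UMI is not shown to be absent from a cell.

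Ligand was seen in few wells and a binding protein in most. At least 1 UMI of Igf1 or Igf2 was found in 103 of 503 wells, and at least 1 of the 6 binding proteins in 377 wells (75.0%). Of the 103 ligand wells, 90 also held a binding protein UMI. By group these were 9 of 9 in Rgs5 wells, 46 of 50 in tendon wells and 35 of 43 in wells with neither. Of the 503 wells 84 held Igf1, 21 held Igf2 and 2 held both, and both of these were tendon wells. For genes this sparse few shared wells are expected, and whether 2 is fewer than that was not tested.

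**Figure D1:**
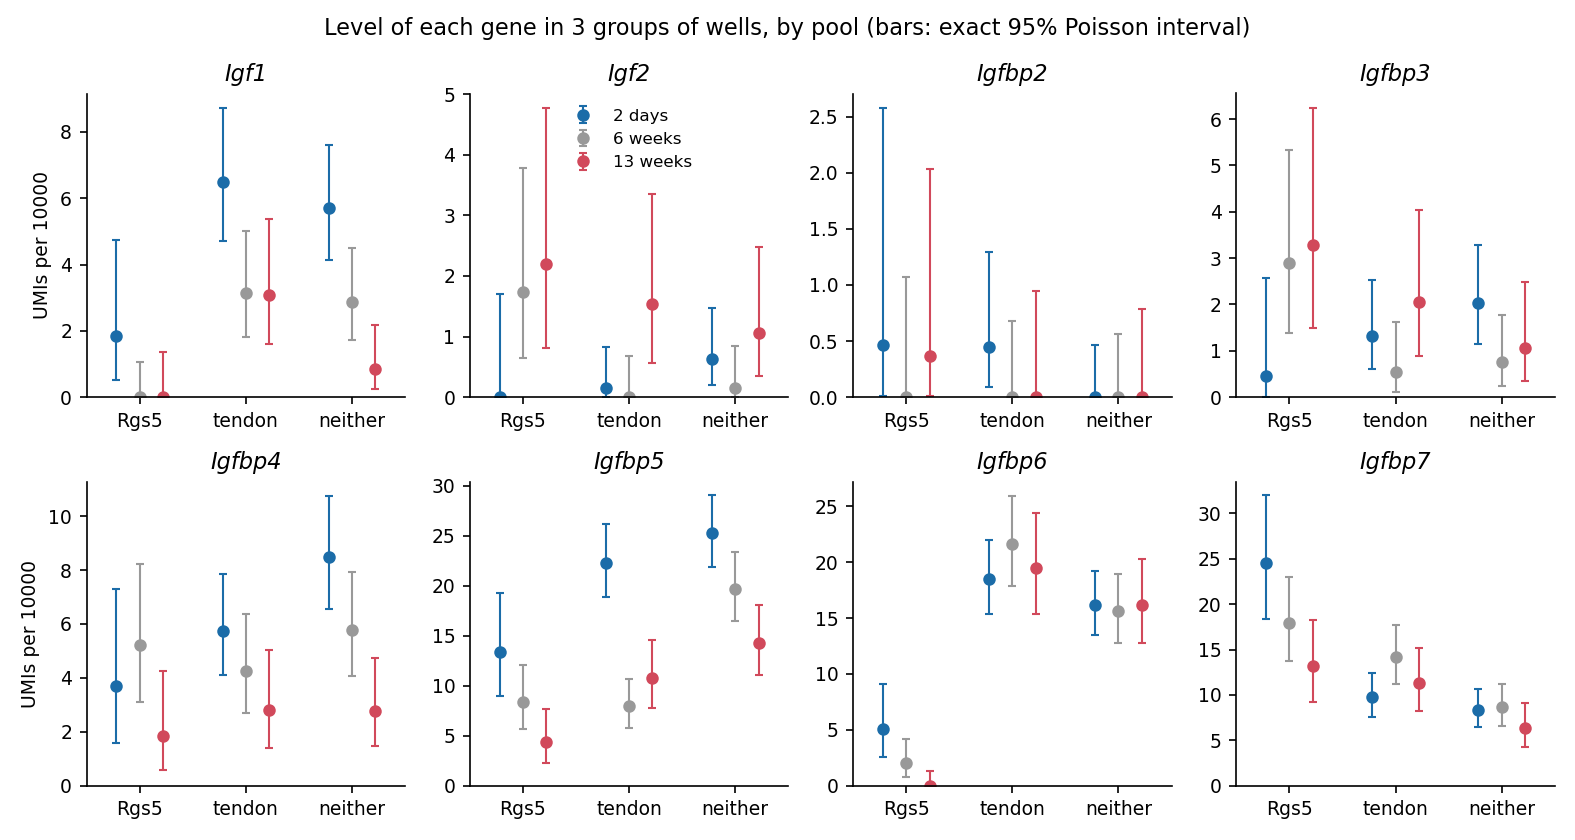
UMIs per 10000 of each of the 8 genes (y axis, a separate scale per gene) in Rgs5 wells, tendon wells and wells with neither (x axis), with 1 point per pool and exact 95% Poisson intervals. Igfbp6 in Rgs5 wells, at 0 to 5.09, lies below every tendon and neither point, and Igfbp7 is high in Rgs5 wells, at 13.2 to 24.5.

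Igf1, the main local ligand of the pathway, came from tendon wells and from fibroblast wells, and hardly at all from Rgs5 wells. In Rgs5 wells 4 UMIs were counted at 2 days, in 2 wells, and 0 at 6 weeks and 13 weeks, which allows up to 0.869 and 1.10 per 10000. Tendon wells held 44, 17 and 12 UMIs at 2 days, 6 weeks and 13 weeks, or 6.50, 3.14 and 3.08 per 10000. Wells with neither held 45, 19 and 4 UMIs, or 5.69, 2.88 and 0.852 per 10000. In each pool the measured Rgs5 level was thus below both other groups and tendon wells were above wells with neither. At 13 weeks, however, the limit of 1.10 for Rgs5 wells was above the 0.852 of wells with neither, so their order there was not shown. Across pools the Rgs5 range also overlapped that of wells with neither. The mean over pools was 0.617 ± 1.07 per 10000 in Rgs5 wells, 4.24 ± 1.96 in tendon wells and 3.14 ± 2.43 in wells with neither (SD, n = 3 pools).

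Groups were compared in 1 edgeR quasi-likelihood fit over all genes, on UMIs summed per pool and group, with the pool as a block. Igf1 was lower in Rgs5 wells than in tendon wells by a fitted log2 fold of -3.23 ± 0.62 (SE, adjusted p = 1.032e-05), and than in wells with neither by -2.70 ± 0.64 (adjusted p = 0.001059). The tendon and neither groups were not told apart for Igf1 (log2 fold 0.53 ± 0.39, adjusted p = 0.5504). The first call was kept in 19 of 20 alternatives and lost without the 6-week pool (adjusted p = 0.06181). The second was kept in 15 of 20, and lost with DESeq2 (adjusted p = 0.1252), with a filter of 100 UMIs (0.06081), without the 6-week pool (0.345), without the pool block (0.06276) and without the Rgs5 wells that had endothelial transcripts (0.1575).

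Within the wells with neither, Igf1 was concentrated in the fibroblast wells. The 86 fibroblast wells without satellite or muscle fibre transcripts held 60 of the group's 68 Igf1 UMIs, 6.11 per 10000, with Igf1 seen in 28 wells (32.6%, exact binomial interval 22.8 to 43.5). The 43 satellite wells held 5 UMIs in 2 wells (4.65%), at a median depth of 869 UMIs against 889 in the fibroblast wells. The 65 wells with none of these marks held 2. Tendon wells expressed Igf1 whether or not they met the fibroblast rule, at 4.03 per 10000 in the 40 wells that did and 4.72 in the 134 that did not. Macrophages also make Igf1. The 12 immune genes together had 32 UMIs in wells with neither (17, 1 and 14 at 2 days, 6 weeks and 13 weeks), 3 in tendon wells and 9 in Rgs5 wells. Lyz2 gave 17 of the 32, whereas over the 3 groups C1qa and Adgre1 had 0, Csf1r had 1 and Ptprc had 2. Their part in the Igf1 counts was not tested.

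Because deeper wells show more genes, shares of wells were also computed at 300 UMIs per well, averaged over all possible draws, which left out 20 shallower wells. On this scale an Igf1 UMI was expected in 10.7% of tendon wells, 6.25% of wells with neither and 1.45% of Rgs5 wells. The unthinned shares were 28.2%, 15.6% and 1.90%, at median depths of 788, 734 and 571 UMIs.

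The Igf1 level was lower at the later times. Over all wells it was 5.43 per 10000 at 2 days (93 UMIs), 2.30 at 6 weeks (36 UMIs) and 1.36 at 13 weeks (16 UMIs). The 13-week level was 0.25 of the 2-day level (95% counting interval 0.137 to 0.428). The median ratio of the 772 genes with 50 or more UMIs in both pools together was 0.918, of which 6.35% were at least 2-fold lower and 3.76% at least 2-fold higher at 13 weeks. With 1 pool per time there is no test between times, and the interval says nothing of the spread between mice.

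Within each group the 2-day level was also the highest. Tendon wells were nearly level between 6 weeks and 13 weeks (3.14 and 3.08 per 10000), and Rgs5 wells had 0 UMIs at both. In tendon wells the 13-week level was 0.473 of the 2-day level (0.228 to 0.912), where 10.3% of 252 genes were at least 2-fold lower and 2.78% higher. In wells with neither it was 0.150 (0.0391 to 0.411), where 8.98% of 323 genes were lower and 4.64% higher by that measure. The intervals of these 2 ratios overlapped. Rgs5 wells had too few Igf1 UMIs for a ratio. The fibroblast list was also lower at 13 weeks, at 129.1 against 204 per 10000 in tendon wells and 189.9 against 269.9 in wells with neither. In wells with neither other lists were higher at 13 weeks than at 2 days: the perivascular list at 25.1 against 8.34, the endothelial list at 9.37 against 0.885 and the skeletal muscle list at 67.5 against 36.5. The part of these lists in the Igf1 ratios was not tested. Without the well richest in Igf1 in each pool the ratios were 0.218 over all wells, 0.394 in tendon wells and 0.0871 in wells with neither. The ratio in wells with neither depended on the tendon gate: with a gate of 1 UMI, which takes out the wells with 1 or 2 tendon UMIs, it was 0.546 (0.0951 to 2.19), while that of tendon wells was 0.281. Without the deepest 5% of wells the tendon ratio was 0.525 and its interval reached 1 (0.240 to 1.06).

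**Figure D2:**
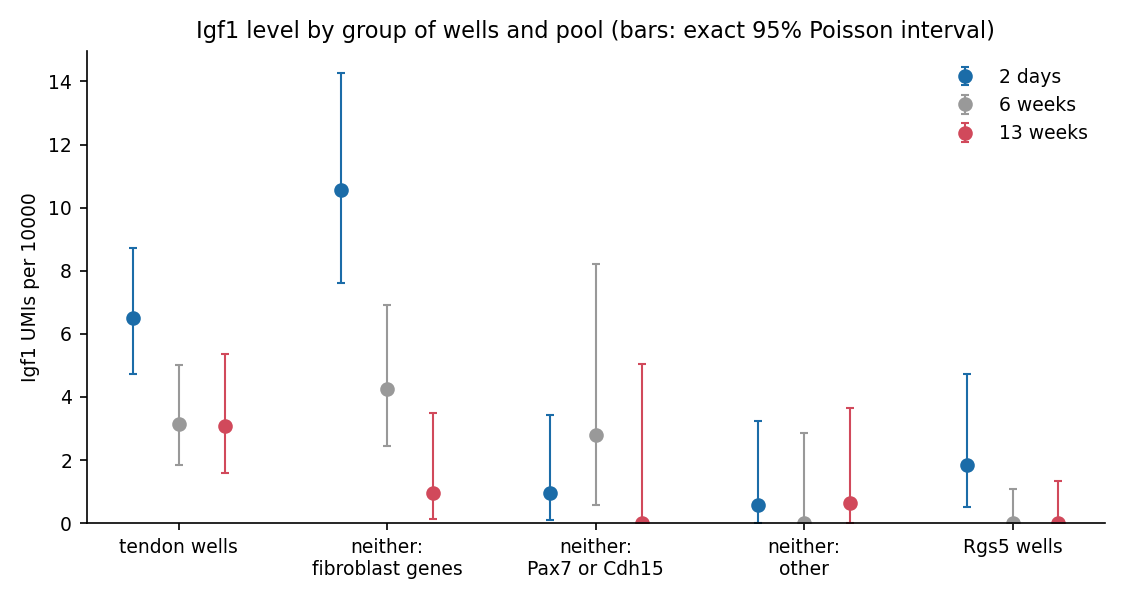
Igf1 level in UMIs per 10000 (y axis) by group of wells (x axis), with wells with neither split into fibroblast wells, satellite wells (Pax7 or Cdh15) and other wells, 1 point per pool and exact 95% Poisson intervals. Fibroblast wells run from 10.6 at 2 days to 4.25 at 6 weeks and 0.965 at 13 weeks, and the satellite, other and Rgs5 points stay below 3.

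In the 86 fibroblast wells the Igf1 level was 10.6 per 10000 at 2 days (42 UMIs), 4.25 at 6 weeks (16 UMIs) and 0.965 at 13 weeks (2 UMIs, in 1 well), a 13-week ratio of 0.0914 (0.0107 to 0.352). In these wells the 7 genes of the fibroblast list that the rule did not use stood at 298.7, 230.4 and 234.9 per 10000 in this order of times, a 13-week ratio of 0.786 (0.706 to 0.875). Among them the ratio was 0.856 for Dcn and 0.647 for Col3a1. The genes of the rule went both ways, with 0.888 for Gsn, 1.65 for Ly6a (1.23 to 2.23) and 0.274 for Pdgfra (0.0524 to 0.919, with 3 UMIs at 13 weeks), given as a description because they chose the wells. Wells that met the fibroblast rule made up 48.1%, 50% and 32.7% of the wells with neither at the 3 times. The part of this share in the ratio of the whole group was not tested.

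Igf2, the ligand best known from fetal growth, was rare, and its distribution was not tested against that of Igf1. Rgs5 wells held 0, 6 and 6 UMIs at 2 days, 6 weeks and 13 weeks, tendon wells 1, 0 and 6, and wells with neither 5, 1 and 5. No comparison of groups was called (adjusted p of 0.3527 to 0.8864 in edgeR), and leaving out the deepest wells turned its direction in both Rgs5 comparisons. With a tendon gate of 5 UMIs it was called higher in Rgs5 than in tendon wells (log2 fold 3.66, edgeR adjusted p = 0.01532), the only call in 17 alternatives. Of the 12 Igf2 UMIs of Rgs5 wells, 11 lay in the 43 wells with endothelial transcripts. These wells were also deeper, with a median of 801 UMIs against 479. Over all wells the Igf2 count was 6 at 2 days and 18 at 13 weeks, a ratio of 4.36 (1.66 to 13.4). Without the richest well of each pool the interval stayed above 1 (1.42 to 14.8). Without the 3 richest the count was 3 at 2 days and 8 at 13 weeks, and the interval included 1 (ratio 3.97, 0.953 to 23.2). The endothelial list was likewise at 23.6 and 49.3 per 10000 in the Rgs5 wells of these times, and its part in the Igf2 counts was not tested.

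Igfbp6, the Igf2-preferring binding protein, gave the sharpest difference between groups. Tendon wells held 18.5, 21.6 and 19.5 UMIs per 10000 at 2 days, 6 weeks and 13 weeks, and wells with neither 16.2, 15.6 and 16.2. Rgs5 wells held 5.09, 2.03 and 0 per 10000, from 11, 7 and 0 UMIs, of which 7 of the 11 were in 1 well. The Rgs5 levels did not overlap with those of either group. Igfbp6 was lower in Rgs5 wells than in tendon wells by a log2 fold of -3.36 ± 0.38 (edgeR adjusted p = 6.791e-16) and than in wells with neither by -3.01 ± 0.38 (adjusted p = 2.637e-12), and both calls held in 20 of 20 alternatives.

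Within the wells with neither, the 86 fibroblast wells held 268 of 307 Igfbp6 UMIs, and 66 of them (76.7%) had at least 1, against 8 of 43 satellite wells (18.6%). Tendon wells that met the fibroblast rule had 33.1 per 10000 and those that did not 15.0. The intervals of its time ratios included 1: the 13-week level was 1.06 (0.783 to 1.42) times the 2-day level in tendon wells and 1.00 (0.743 to 1.34) in wells with neither. In fibroblast wells it was 1.18 (0.863 to 1.61). In Rgs5 wells the 11 UMIs at 2 days stood against 0 of 27373 UMIs at 13 weeks, a ratio of 0 with an interval up to 0.315. Without the well that held 7 of the 11 the interval reached 1.10. The fibroblast list in Rgs5 wells was at 94.9, 56.5 and 26.7 per 10000 over the 3 times, and its part in these counts was not tested.

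Igfbp7, a weak ligand binder that is abundant in vessel walls, ran the other way. Rgs5 wells held 24.5, 18.0 and 13.2 UMIs per 10000 at 2 days, 6 weeks and 13 weeks, tendon wells 9.74, 14.2 and 11.3, and wells with neither 8.34, 8.65 and 6.39. The Rgs5 levels were above those of wells with neither in all pools, without overlap, whereas the Rgs5 and tendon ranges overlapped. Igfbp7 was higher in Rgs5 wells than in wells with neither by 1.09 ± 0.30 on the log2 scale (edgeR adjusted p = 0.007633). This call held in 12 of 20 alternatives. Among others it was lost without the Rgs5 wells with endothelial transcripts (log2 fold 0.71, adjusted p = 0.3083), without the 2-day pool (0.09026), without the 6-week pool (0.1143), on read counts (0.1373) and without the pool block (0.06276). Rgs5 wells with and without endothelial transcripts were at 19.1 and 16.8 per 10000. Against tendon wells the log2 fold was 0.46 ± 0.30 (adjusted p = 0.44). Igfbp7 was seen in 62 of 105 Rgs5 wells (59.0%), and in 40.7% on the 300-UMI scale, against 25.2% of tendon wells and 15.6% of wells with neither. Within Rgs5 wells the 13-week level was 0.536 of the 2-day level (0.341 to 0.835), where 10.2% of 88 genes were at least 2-fold lower and 3.41% higher.

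Igfbp5, which binds to matrix and is made by osteoblasts and fibroblasts, was the most abundant of the genes in wells with neither over the pools together, at 20.7 UMIs per 10000. Without the 3 richest wells of each pool it was at 11.4, beside 11.3 for Igfbp6. At 13 weeks Igfbp6 was higher in this group (16.2 against 14.3). For Igfbp5, wells with neither held 25.3, 19.7 and 14.3 UMIs per 10000 at 2 days, 6 weeks and 13 weeks, tendon wells 22.3, 7.94 and 10.8, and Rgs5 wells 13.4, 8.40 and 4.38. Rgs5 wells were below wells with neither in every pool, and the ranges did not overlap. The log2 fold was -1.37 ± 0.31 (edgeR adjusted p = 0.0004488), a call kept in 13 of 20 alternatives. It was lost with DESeq2 (adjusted p = 0.0557), without the 6-week pool (0.1339) or the 13-week pool (0.08063), without the block (0.07707), without Rgs5 wells with endothelial transcripts (0.1396), without the deepest 5% of wells (0.2348) and with the tendon gate of 1 UMI (0.5542). Against tendon wells the log2 fold was -0.81 ± 0.31 (adjusted p = 0.08229), and 4 of 20 alternatives made the call: a filter of 1 UMI (0.03397), read counts (0.03806), an Rgs5 gate of 2 UMIs (0.04773) and a tendon gate of 1 UMI (0.01049).

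Igfbp5 was found in 165 of 503 wells, and at 2 days 4 of the 181 wells held 191 of its 384 UMIs (49.7%). These were 2 tendon wells, with 56 and 41 UMIs, and 2 wells with neither, with 52 and 42. In all, 26.4% of tendon wells (20.1 to 33.6) and 35.2% of Rgs5 wells (26.2 to 45.2) had any Igfbp5 UMI, with overlapping intervals. The pooled tendon level of 14.7 per 10000 was 8.83 without those 2 tendon wells, beside 8.38 in Rgs5 wells. Tendon wells that met the fibroblast rule had 34.3 per 10000, or 22.2 without their richest well, and those that did not had 7.67, or 4.26 without theirs. The fibroblast wells of the group with neither had 32.7, or 28.5 without theirs. Among Rgs5 wells the level was 14.0 per 10000 without and 4.19 with endothelial transcripts. The 13-week ratio was 0.465 (0.377 to 0.572) over all wells, 0.472 without the richest well of each pool, and 0.516 (0.398 to 0.665) without the 3 richest. Leaving out the 3 richest wells at 2 days alone took that level from 22.4 to 14.4 per 10000, against 10.4 at 13 weeks. In tendon wells the same step took the 2-day level to 7.01, below the 10.8 at 13 weeks, where the 3 richest wells also held most UMIs (2.90 without them). The direction in tendon wells thus turned when wells were left out at 2 days only, and the ratio was 0.414 (0.186 to 0.834) when they were left out of each pool.

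Igfbp4, a soluble inhibitor of Igf1 action that the protease Pappa cleaves, had intermediate levels. Wells with neither held 8.47, 5.76 and 2.77 per 10000 at 2 days, 6 weeks and 13 weeks, tendon wells 5.76, 4.25 and 2.82, and Rgs5 wells 3.70, 5.22 and 1.83. The ranges of all 3 groups overlapped and no comparison was called (edgeR adjusted p of 0.3629 to 0.742). Without Rgs5 wells with endothelial transcripts, which held 24 of the 31 Igfbp4 UMIs of Rgs5 wells, Igfbp4 was lower in the rest than in wells with neither (log2 fold -1.90, edgeR adjusted p = 0.03337). Fibroblast wells held 109 of the 118 UMIs of wells with neither and satellite wells 0. The 13-week ratio was 0.376 (0.243 to 0.566) over all wells, 0.490 (0.226 to 0.975) in tendon wells and 0.327 (0.165 to 0.597) in wells with neither, all lower, as for Igf1 and Igfbp5. Without the richest well of each pool the tendon interval reached 1 (0.206 to 1.05).

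Igfbp3, the main carrier of circulating ligand, and Igfbp2 were scarce. Igfbp3 had 1, 10 and 9 UMIs in Rgs5 wells at 2 days, 6 weeks and 13 weeks, 9, 3 and 8 in tendon wells, and 16, 5 and 5 in wells with neither, where 1 well at 2 days held 14 of the 16. No comparison was called (edgeR adjusted p of 0.4983 to 0.9727). Of the 20 Igfbp3 UMIs of Rgs5 wells, 16 lay in wells with endothelial transcripts, and without those wells its sign turned in both Rgs5 comparisons (log2 folds -0.60 and -0.62). Igfbp2 had 5 UMIs in 3 wells of the 503 and was too rare to test.

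**Figure D3:**
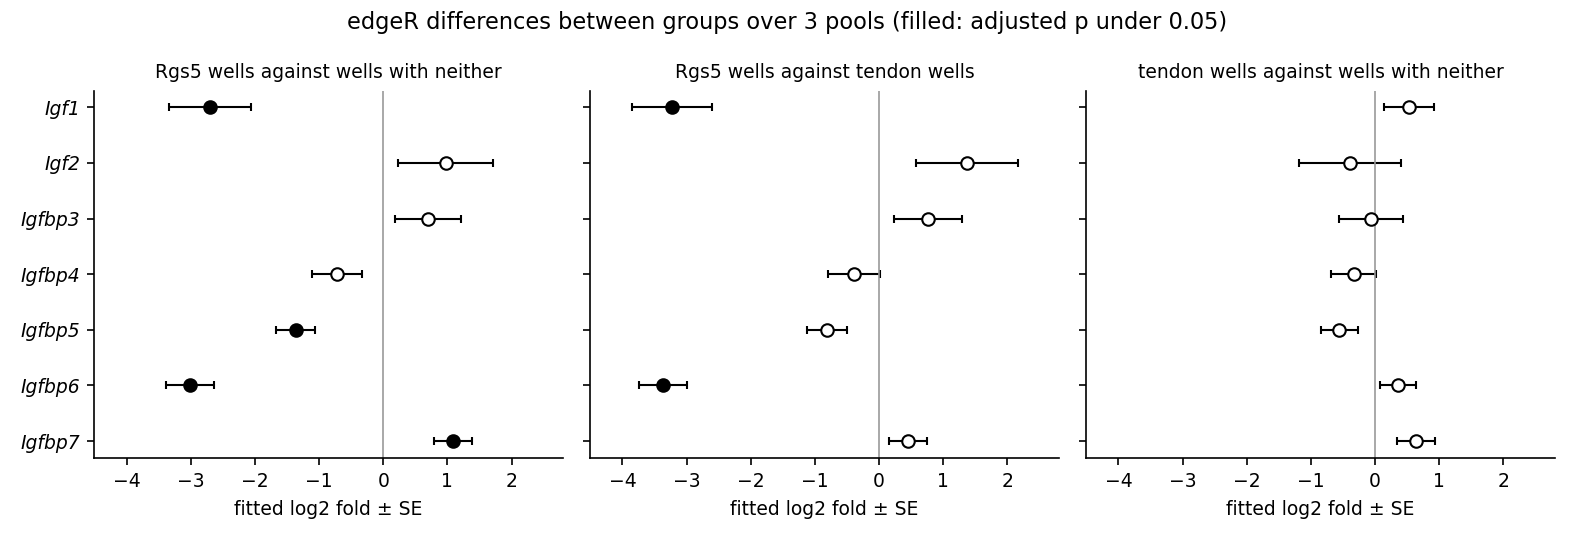
Fitted log2 fold between groups of wells (x axis, ± SE) for the 7 genes with 20 or more UMIs (y axis), from edgeR over 3 pools, 1 panel per comparison, filled where the adjusted p was under 0.05. Igf1 and Igfbp6 are filled and negative in both Rgs5 panels, Igfbp5 (negative) and Igfbp7 (positive) in the first, and no point is filled in the tendon panel.

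Between Rgs5 wells and wells with neither, 1 of the 7 tested genes was thus higher and 3 were lower, where 2.53% of the 3715 genes tested were called higher and 3.71% lower. Between Rgs5 wells and tendon wells 0 were higher and 2 lower, with 4.36% (162 genes) and 5.65% (210 genes) over all genes. Scaling to total UMIs gave 198 higher and 157 lower genes in the latter comparison, with the median of all genes shifted by 0.22 on the log2 scale, and left the direction of all 7 genes as it was. Between tendon wells and wells with neither 0 of 7 were called in edgeR, or in DESeq2, and 1, Igfbp7, had an unadjusted p under 0.05 in edgeR, with 3.66% and 4.68% of all genes called higher and lower. With a filter of 100 UMIs per gene Igfbp7 was called in edgeR (log2 fold 0.89, adjusted p = 0.02441). The levels of Igfbp6 and Igfbp7 over the 3 pools did not overlap between these groups, but neither was called in the main fit. The share of all genes without overlap was not computed, so this is a description only. The median log2 fold of the 7 genes was -0.72, -0.39 and -0.06 in the comparisons of Rgs5 with neither, Rgs5 with tendon and tendon with neither, beside -0.22, -0.09 and -0.07 over all genes tested.

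**Figure D4:**
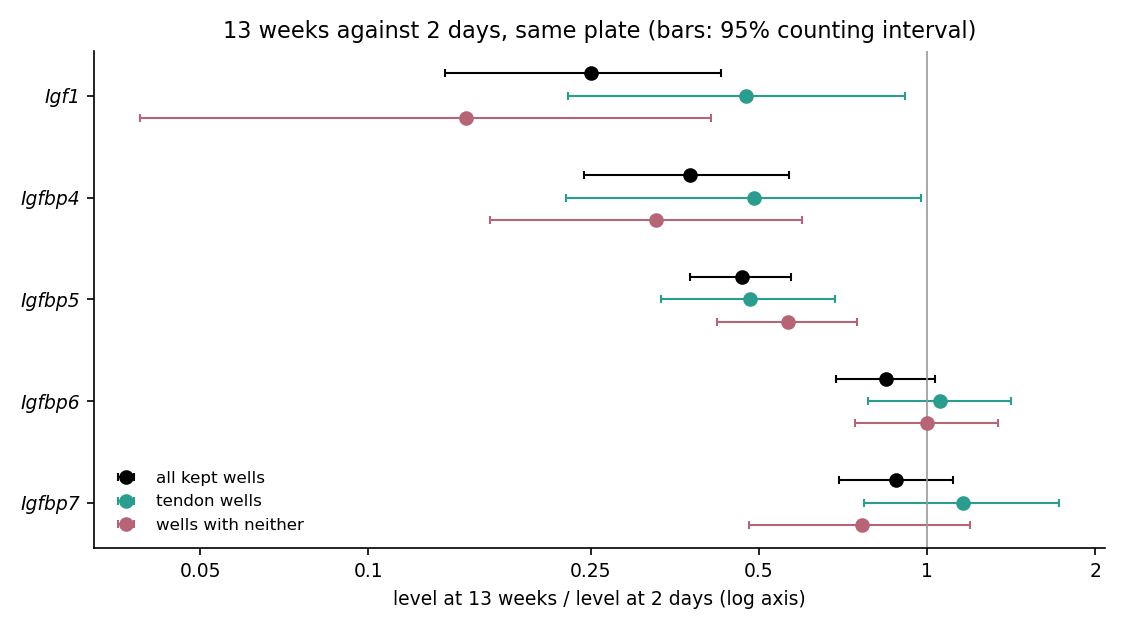
Level at 13 weeks divided by level at 2 days (x axis, log scale) for the 5 genes with 100 or more UMIs (y axis), over all kept wells, tendon wells and wells with neither, with 95% counting intervals. Igf1, Igfbp4 and Igfbp5 lie below 1 in each group, and the intervals of Igfbp6 and Igfbp7 include 1.

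Set side by side over all wells, the genes differed in time. Igf1, Igfbp4 and Igfbp5 were at 0.25, 0.376 and 0.465 of their 2-day level at 13 weeks, and the intervals of all 3 lay below 1 in all wells, tendon wells and wells with neither, with the few rich wells of Igfbp5 and the richest of Igfbp4 as given above. Igfbp6 and Igfbp7 were at 0.844 (0.688 to 1.03) and 0.881 (0.694 to 1.11). Within groups of wells some of these ratios lay below 1: Igfbp7 in Rgs5 wells (0.536, and 0.637 with an interval of 0.357 to 1.12 without the 3 richest wells of each pool) and fibroblast wells (0.403, interval 0.203 to 0.740), and Igfbp6 in Rgs5 wells, from 11 UMIs to 0. At 6 weeks, on the other plate, the ratios to 2 days were 0.423 for Igf1, 0.753 for Igfbp4, 0.575 for Igfbp5, 0.940 for Igfbp6 and 1.12 for Igfbp7, where 2.61% of 957 genes were at least 2-fold lower and 4.39% higher. A list of 8 osteoblast genes also differed in time, at 104.9, 111.6 and 12.6 per 10000 in wells with neither and 107.2, 169.1 and 56.9 in tendon wells, and its part in these ratios was not tested.

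Other genes of the pathway were mostly too rare to test: of a list of 31, 28 were listed and 14 had enough UMIs. Igf1r, the signaling receptor, had 11 UMIs in all wells, Insr 13, Irs1 19 and Irs2 14. Pappa and Pappa2, the proteases of Igfbp4 and Igfbp5, had 1 and 7. Igf2r, which clears Igf2, had 72 UMIs and was at 2.53 ± 0.67 per 10000 in Rgs5 wells, 0.787 ± 0.48 in tendon wells and 1.72 ± 0.61 in wells with neither (SD, n = 3 pools), without a call (edgeR adjusted p = 0.06744 between Rgs5 and tendon wells).

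Of the 14 tested pathway genes, 1 was higher and 2 were lower in Rgs5 wells than in wells with neither, beside 2.53% and 3.71% of all genes. Vtn, the matrix protein vitronectin that binds ligand complexes, was higher at 2.17 ± 0.65 against 0.378 ± 0.11 per 10000 (edgeR log2 fold 2.31 ± 0.71, adjusted p = 0.02344). It had 4, 6 and 8 UMIs in Rgs5 wells at 2 days, 6 weeks and 13 weeks. Wells with neither had 2, 3 and 2, and tendon wells 3, 2 and 1. Vtn thus passed the filter on UMIs per gene only with those of the Rgs5 wells, where it was called higher. Htra3, a secreted protease, was lower in Rgs5 wells than in wells with neither (log2 fold -2.22 ± 0.68, adjusted p = 0.0225), as was Lrp1, an endocytic receptor of many ligands (log2 fold -1.43 ± 0.39, adjusted p = 0.007869). Against tendon wells, where 4.36% of all genes were higher and 5.65% lower, 1 was higher, Vtn again (adjusted p = 0.02902), and 4 were lower in edgeR: Lrp1 (log2 fold -1.999 ± 0.39, adjusted p = 1.315e-05), Htra1 (-2.35 ± 0.68, adjusted p = 0.009075), Spp1 (adjusted p = 0.01647) and H19 (adjusted p = 0.036). H19, the non-coding RNA next to Igf2, had 0 UMIs in Rgs5 wells and 13 in tendon wells, at least 2.25-fold lower with the limit at 3 counts over the group. The tendon UMIs were 6, 0 and 7 at 2 days, 6 weeks and 13 weeks, so the ranges of these groups overlapped. H19 passed the filter on UMIs per gene only with those of the tendon wells, the group in which it was higher.

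Spp1, osteopontin, was also the 1 pathway gene called between tendon wells and wells with neither, where 3.66% of all genes were higher and 4.68% lower (higher, log2 fold 1.41 ± 0.43, edgeR adjusted p = 0.01634). Its UMIs were mostly from the 6-week plate in every group: 0, 34 and 0 in Rgs5 wells at 2 days, 6 weeks and 13 weeks, 19, 63 and 9 in tendon wells, and 1, 71 and 2 in wells with neither. On that plate the osteoblast list was also found in 100% of Rgs5 wells, against 53.1% and 56.2% at 2 days and 13 weeks, and its part in the Spp1 counts was not tested. The median log2 fold of the 14 pathway genes was -0.55, -0.70 and 0.09 in the comparisons of Rgs5 with neither, Rgs5 with tendon and tendon with neither, and -0.48 in the first with H19 at its limit.

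Wells with Igf1 were deeper than those without, and in the group with neither they were mostly fibroblast wells, which made up 28 of the 33. Within the 86 fibroblast wells, the 28 with Igf1 had a median of 1459 UMIs and the other 58 had 805.5. Igfbp5 was found in 78.6% of the former (59.0 to 91.7) and 41.4% of the latter (28.6 to 55.1), Igfbp4 in 60.7% (40.6 to 78.5) and 32.8% (21.0 to 46.3), Igfbp7 in 64.3% and 51.7%, and Igfbp6 in 78.6% and 75.9%. Of these 4 genes, Igfbp5 alone had intervals that did not overlap, and the part of depth in these shares was not tested. In tendon wells Igfbp5 was in 26.5% of the 49 wells with Igf1 and 26.4% of the other 125, at median depths of 1233 and 648 UMIs.

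Genes with the most similar levels over the 9 sums of pool and group were sought among 585 genes with 100 or more UMIs, leaving out the gate genes. The sums share plates and mice, so the correlations of log2(UMIs per 10000 + 0.1) are descriptions. Igf1 was most like Nfic (r = 0.936), Rrbp1 (0.934) and Olfml3 (0.928). Igfbp6 was most like Emp3 (0.987) and the collagen VI genes Col6a1 (0.957) and Col6a2 (0.955), and Igfbp5 like Serping1 (0.936), Smoc2 (0.915) and Dpt (0.912). Igfbp7 was most like Col4a2 (0.937), which encodes a basement membrane collagen, Timp3 (0.861) and Gnb2 (0.836), and Igfbp4 like Cd63 (0.922), Bglap (0.871) and Col6a3 (0.847). Among the genes themselves Igf1 and Igfbp6 were alike (0.841) and Igf1 and Igfbp7 were not (-0.341).

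The 13 wells that passed both gates held 9345 UMIs, with 0 of Igf1, 1 of Igf2, 4 each of Igfbp4 and Igfbp6, 6 of Igfbp5 and 17 of Igfbp7. At 18.2 UMIs per 10000 (10.6 to 29.1) their Igfbp7 level was near that of Rgs5 wells (18.1), and at 4.28 their Igfbp6 level was below that of tendon wells (19.8).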

How the data were processed

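Single-cell libraries were made in plates with barcoded 3'-end primers. Per the labels' processing notes, the authors demultiplexed reads with bcl2fastq 2.18.0.12, aligned them to GRCm38 with STAR 2.5.4a, used Picard 2.9.3 (the methods of the study name another Picard version), tallied each gene in each well with the Drop-seq toolkit, and deposited UMI counts and read counts without normalization. The methods name a versioned mm10 reference, without stating its gene annotation. Another 168 wells belong to no pool here and were set aside. Genes absent from the table of a plate were taken as 0 there.

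The members, gates and lists were chosen with earlier results of these data known. Genes named were the 8 members, the pathway list and, for each member with 100 or more UMIs, the 3 genes of most similar level. Marker lists were perivascular, endothelial, tendon or fibrous, fibroblast, muscle satellite, skeletal muscle, osteoblast, immune, red blood, chondrocyte and Schwann.

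UMIs were summed per pool and group (9 sums) and tested with edgeR 4.0.16 (quasi-likelihood, TMM, pool as block, Benjamini-Hochberg over all genes, threshold 0.05) in R 4.3.3, keeping genes with 20 or more UMIs. With 4 residual degrees of freedom against a prior of 606.6, the spread is almost wholly shared across genes. Groups of a pool share its mice. DESeq2 1.42.0, other scalings, filters and gates, read counts and leaving out wells or pools were alternatives. The fit was tested on simulated data. Levels are pooled UMIs per 10000 with exact Poisson intervals, shares have exact binomial intervals, and ratios between times have exact conditional intervals, all at 95% and for counting error only. A count of 0 was given a limit of 3 counts. Thinning drew 300 UMIs per well. Python 3.11.15, pandas 2.3.3 and scipy 1.17.1 were used.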

Additional observations from a re-analysis of the deposited data

How the results depend on the processing

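Each of the 21 differences of a member between groups was refitted under up to 20 alternatives, with 364 values keeping direction and call, 21 losing the call, 7 gaining it and 15 changing sign. None of the sign changes was in a called difference. For Igf2 they came without the deepest 5% of wells (-0.078 against tendon wells and -0.24 against wells with neither, for Rgs5 wells), and, for tendon wells against wells with neither, with 1 pool left out (-0.26 to 0.35, the latter without the 2-day pool) and without satellite and muscle fibre wells (0.38). For Igfbp3 they came without Rgs5 wells with endothelial transcripts (-0.60 and -0.62, as above), and for tendon wells against wells with neither at 300 genes (0.037), with DESeq2 (0.057), with DESeq2 size factors in edgeR (0.036), with 1 pool left out (-0.47 to 0.52, above 0 without the 2-day or the 6-week pool), with a tendon gate of 1 (1.61) and without the deepest wells (1.27). That gate also turned Igfbp4 (0.32) and Igfbp5 (0.63) in the same comparison. The cause was not tested.

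The number of genes called was 372 between Rgs5 and tendon wells, 232 between Rgs5 wells and wells with neither and 310 between tendon wells and wells with neither. In this order it was 164, 69 and 92 with DESeq2, 152, 70 and 133 with a filter of 100 UMIs, 210, 88 and 87 on read counts, and 138 to 255, 39 to 143 and 107 to 173 with 1 pool left out. Without the pool as a replicate block it was 276, 132 and 163. Without Rgs5 wells with endothelial transcripts it was 166 and 90 in the first 2. For tendon wells against wells with neither it was 204 with a filter of 1 UMI, 116 with a tendon gate of 1 and 190 without satellite and muscle fibre wells. Without the block, Igf1 (adjusted p = 0.06276), Igfbp5 (0.07707) and Igfbp7 (0.06276) were no longer called in Rgs5 wells against wells with neither in edgeR, and Igfbp6 was (9.134e-04).

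DESeq2 size factors and total UMIs moved the median log2 fold of all genes by 0.11 and 0.16 between Rgs5 wells and wells with neither. The 13-week Igf1 ratio lay between 0.218 and 0.339 over all wells under its alternatives. Without the 3 richest wells of each pool, which was not among these, it was 0.191 (0.0879 to 0.3705) over all wells and 0 (0 to 0.239) in wells with neither. In wells with neither it was 0.546 with a tendon gate of 1 and 0 with wells thinned to 300 UMIs in 1 draw (0 to 0.407, counting interval), and 0.106 in all 95 wells that met the fibroblast rule. Shares at 300 UMIs in a single draw moved with the seed (Igf1 in tendon wells, 8.88% with another seed), so the mean over all draws was used. The Igfbp5 shares of fibroblast wells with and without Igf1 at 300 UMIs are the exception and rest on 1 draw. That choice, the ratios in fibroblast wells and those without the richest wells were added after seeing the data. Depth limits the rare genes: Igf2 and Igfbp3, with 31 and 66 UMIs, could show only large differences.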

Other observations

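The other marker lists follow as levels. The 12 immune genes were at 1.08, 0.186 and 1.67 UMIs per 10000 in Rgs5 wells, tendon wells and wells with neither, the 5 chondrocyte genes at 0, 1.24 and 0.885, and the 5 Schwann genes at 1.44, 0.932 and 0.365. The 12 skeletal muscle genes were at 5.15, 3.79 and 51.1 and the 8 satellite genes at 3.83, 14.6 and 11.7, and in tendon wells at 13 weeks 7 of these 8 were at 0. The 10 tendon or fibrous genes, which include the gate genes, were at 9.34, 243.9 and 11.2. The 5 red blood genes were at 55.2, 1.37 and 38.8, of which 448 of the 461 UMIs of Rgs5 wells came from the 6-week pool. Leaving out wells with 100 or more hemoglobin UMIs called 234 genes in place of 232 between Rgs5 wells and wells with neither.

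In the fibroblast wells of the group with neither, the genes of the family again differed in time. Igfbp4 was at 16.8, 8.77 and 4.34 UMIs per 10000 at 2 days, 6 weeks and 13 weeks, a 13-week ratio of 0.258 (0.113 to 0.519), and Igfbp5 at 45.7, 29.2 and 14.0, a ratio of 0.306 (0.199 to 0.454). At 2 days 2 of the 32 fibroblast wells held 52 and 42 of the 182 Igfbp5 UMIs, and 1 held 19 of the 67 Igfbp4 UMIs. At 13 weeks there were 17 such wells, and 1 held 11 of the 29 Igfbp5 UMIs. These ratios were not computed without the richest wells. Igfbp7 was at 15.6, 10.9 and 6.27, a ratio of 0.403 (0.203 to 0.740), whereas its ratio in tendon wells was 1.16 (0.772 to 1.72). The difference between these ratios was not tested.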
